A study of Homo sapiens with 134 samples.

Results

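Metallothioneins and the genes that handle zinc and copper beside them were examined in human bronchial epithelial cells after exposure to high-energy ions or γ-rays. The 10 genes listed were the metallothioneins MT1A, MT1E, MT1F, MT1G, MT1H, MT1X and MT2A, the regulator MTF1, the zinc exporter SLC30A1 and the copper chaperone ATOX1, and all probes that carry their symbols were taken. Named probes were found for 9 of the 10 genes, with 1 probe each, among the 48701 probes of the array and 19381 genes with a named probe. MT1A was not analysed here. The genes were selected on readouts of the same arrays: MT1G and ATOX1 differed strongly between 3 and 1 Gy of γ-rays at 24 h, and MT1G was also listed among γ-ray responders. All γ-ray values are therefore given as a description, with no test.

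The cells were HBEC3KT (HEBC3KT in the study's methods), a line from normal bronchial epithelium that was immortalized by CDK4 and hTERT, so that every sample, irradiated or not, carries both genes. They received 56Fe ions at 0.5 or 1 Gy, 28Si ions at 0.5 or 1 Gy, or γ-rays at 1 or 3 Gy (labelled x-ray in the sample labels and given from a 137Cs source per the methods), were mock-irradiated, or were taken as the reference before irradiation (0 h). Irradiated and mock-irradiated cells were collected 1, 4, 12 and 24 h after exposure. After averaging technical replicates, the 134 Illumina HumanWG-6 V2 arrays gave 71 irradiated, 36 mock-irradiated and 9 reference samples. A run is 1 radiation type in 1 of 5 campaigns (named 08A, 08C, 09A, 09B and 09C in the labels), and each radiation type has 3 runs, which are the replicates. Each radiation type has 1 sample per run, dose and time, except that 56Fe at 0.5 Gy and 12 h has none in campaign 08A. The runs are repeats on 1 cell line and not separate donors, and p-values measure the spread between runs.

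Metallothioneins are small, cysteine-rich proteins that bind zinc and copper and buffer their free levels. Zinc binds the transcription factor MTF1, which then binds short metal response elements in front of the metallothionein genes and of SLC30A1, the transporter that carries zinc out of the cell. ATOX1 takes copper in the cytosol to the copper pumps ATP7A and ATP7B. In airway epithelium, metallothioneins are known as genes that respond to metals, glucocorticoids and oxidants. The metallothioneins lie side by side on chromosome 16. MTF1 and SLC30A1 are on chromosome 1 and ATOX1 is on chromosome 5. The metallothionein transcripts are near copies of each other, and a probe may bind more than 1 of them, so the probe's name is uncertain to that extent.

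The promoters of 6 of the 10 genes are held in the RefSeq table used (GRCh38.p14), and the 250 bases before the start of transcription were searched on both strands for the core of the metal response element, TGCACNC or TGCGCNC. The 4 promoters below are shown because they belong to the 2 metallothioneins of this table with a tested probe (MT2A and MT1X), to the member with the smallest adjusted p over the mock time course (SLC30A1) and to the copper chaperone (ATOX1). Capitals mark the matches, and each sequence runs 5′ to 3′ along the gene's strand.
MT2A, chr16:56608334-56608583, plus strand: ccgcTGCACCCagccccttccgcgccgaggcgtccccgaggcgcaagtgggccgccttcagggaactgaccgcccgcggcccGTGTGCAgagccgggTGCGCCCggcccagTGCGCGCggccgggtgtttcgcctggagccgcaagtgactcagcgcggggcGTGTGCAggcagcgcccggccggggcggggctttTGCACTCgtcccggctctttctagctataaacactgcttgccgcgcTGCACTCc
MT1X, chr16:56682220-56682469, plus strand: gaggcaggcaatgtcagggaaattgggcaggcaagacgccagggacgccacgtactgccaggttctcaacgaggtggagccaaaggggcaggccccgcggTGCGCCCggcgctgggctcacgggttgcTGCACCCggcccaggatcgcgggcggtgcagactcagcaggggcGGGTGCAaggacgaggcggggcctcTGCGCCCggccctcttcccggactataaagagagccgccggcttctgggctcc
SLC30A1, chr1:211579162-211579411, minus strand: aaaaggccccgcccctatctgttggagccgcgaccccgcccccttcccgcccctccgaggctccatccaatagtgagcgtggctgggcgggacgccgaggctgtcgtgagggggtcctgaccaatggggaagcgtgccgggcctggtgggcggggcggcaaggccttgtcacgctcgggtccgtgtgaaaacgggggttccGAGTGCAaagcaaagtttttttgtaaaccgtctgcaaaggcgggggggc
ATOX1, chr5:151758632-151758881, minus strand: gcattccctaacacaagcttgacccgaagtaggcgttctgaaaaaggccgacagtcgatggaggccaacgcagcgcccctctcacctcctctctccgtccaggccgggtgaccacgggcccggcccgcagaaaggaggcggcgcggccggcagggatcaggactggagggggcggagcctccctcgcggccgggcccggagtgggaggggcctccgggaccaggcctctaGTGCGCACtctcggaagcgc
The MT2A promoter held 7 matches, 5 on the gene's strand and 2 on the other, the nearest ending 2 bases before the start. MT1X held 4 matches and MT1H held 8. SLC30A1 held 1 match, on the other strand. ATOX1 held 2 matches that overlap on opposite strands and together cover 8 bases, and MTF1 held none. Of all 35116 promoters of this length, 24.8% held at least 1 match, 0.37% at least 4 and 0.12% at least 5. A match is a run of letters and was not tested as a binding site.

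Signals are given as normalized log2 intensities, and because probes differ in binding, signals of different probes do not give an order of transcript levels. All 5 markers of basal airway epithelium lay above the median of all probes (6.23), KRT5, KRT14 and LAMB3 at 13.25, 12.72 and 13.21 and ITGA6 at 6.53. That median does not set basal markers apart, since 4 of 5 ciliated markers (up to 6.75), 3 of 5 secretory, 2 of 4 endothelial (up to 6.70), 2 of 6 fibroblast and 3 of 4 leukocyte markers (CD68 at 10.99) also exceeded it. The 5 secretory markers lay between 6.07 and 6.49 and the 6 fibroblast markers between 5.89 and 6.43. Arrays had median raw bead signals of 46.3 to 104.1 in irradiated cells, 45.8 to 102.2 in mock-irradiated cells and 51.4 to 115.8 in reference cells. Tests were run on the 24350 probes whose mean signal exceeded that median, which 8 of the 9 member probes did. The probe of MT1H did not pass, with a mean of 5.94 and a range of 5.71 to 6.14, and has no test.

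MT2A, the most abundant metallothionein transcript in many epithelia, had a mean signal of 14.65 over the 116 samples and a narrow range of 13.90 to 15.05. MT1X had a mean of 13.94, and its lowest value of 11.88 was the sample of 1 Gy of γ-rays at 24 h in campaign 08C. MT1G had a mean of 10.46 and the widest range of the metallothionein probes, 7.54 to 11.92. MT1F had a mean of 9.58 (7.81 to 10.27) and MT1E a mean of 6.97 (6.12 to 9.00). The remaining means were 12.32 for ATOX1 (11.11 to 12.83), 8.40 for SLC30A1 (7.54 to 9.93) and 7.88 for MTF1 (7.30 to 8.92). The lowest values of MT1G, ATOX1, MT1X and MT1F all belonged to samples of 1 Gy of γ-rays at 24 h.

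**Figure D1:**
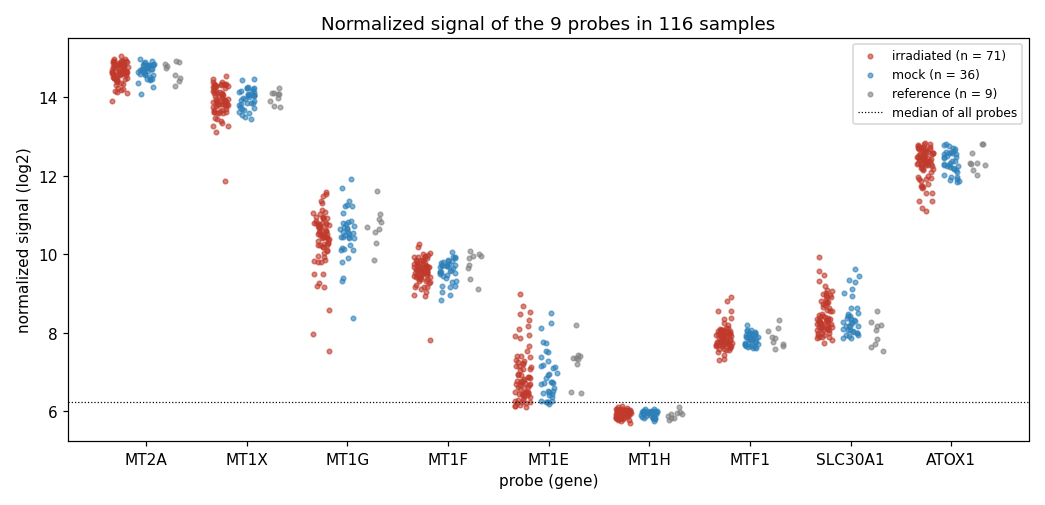
Normalized signal (log2) of each of the 9 probes, 1 point per sample, for irradiated (n = 71), mock-irradiated (n = 36) and reference cells (n = 9), with the median of all probes dotted. A few irradiated samples stand below the rest for MT1G (lowest 7.54), MT1X (11.88), MT1F (7.81) and ATOX1 (11.11), and MT1H stays below the dotted line.

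At 24 h after γ-rays, MT1G was low in the cells given 1 Gy and not in those given 3 Gy. In campaign 08C the MT1G signal was 10.16 in mock-irradiated cells, 7.96 at 1 Gy and 10.92 at 3 Gy. In campaign 09A it was 10.79 in mock-irradiated cells, 9.16 at 1 Gy and 10.70 at 3 Gy. In campaign 09C it was 8.37 in mock-irradiated cells, 7.54 at 1 Gy and 10.03 at 3 Gy. After normalization, the sample of 1 Gy was the lowest of the 3 in every run. The sample of 3 Gy was above mock in 2 runs and 0.08 below it in campaign 09A. The mean log2 ratio to mock was -1.55 ± 0.69 at 1 Gy and 0.78 ± 0.87 at 3 Gy (SD, n = 3 runs). The difference between 3 and 1 Gy was 2.95, 1.54 and 2.49 in the 3 runs, with a mean of 2.33 ± 0.72, a 5.02-fold difference. By size it ranked 3 among the 24350 probes, which is how MT1G came to be chosen.

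ATOX1 had the same order of doses. Its signal was 12.63 in mock-irradiated cells, 11.17 at 1 Gy and 12.74 at 3 Gy in campaign 08C, and 12.79, 11.80 and 12.70 in campaign 09A. In campaign 09C it was 11.97 in mock-irradiated cells, 11.11 at 1 Gy and 12.51 at 3 Gy. After normalization, the cells given 1 Gy were again lowest in every run. The ratios to mock averaged -1.10 ± 0.32 at 1 Gy and 0.19 ± 0.32 at 3 Gy. The difference between 3 and 1 Gy averaged 1.29 ± 0.35 (1.57, 0.90 and 1.40), a 2.44-fold difference that ranked 16 among all probes.

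After normalization, MT1X and MT1F were lower at 1 Gy than in mock in all 3 runs as well, but most of their mean came from 1 run. In campaign 09C the raw signals at 1 Gy were above mock for MT1X (16700 against 13100) and MT1F (643 against 440). Their direction against mock in campaign 09C thus depends on the normalization. The MT1X signal in campaign 08C was 13.61 in mock-irradiated cells, 11.88 at 1 Gy and 13.70 at 3 Gy. Its difference between 3 and 1 Gy was 1.82 in that run, 0.47 in campaign 09A and 0.37 in campaign 09C, so that the mean of 0.89 ± 0.81 became 0.42 without campaign 08C. MT1F gave 1.73, 0.27 and 0.49 in the same order, with a mean of 0.83 ± 0.79. MT1E differed by 0.31, 0.20 and 0.13.

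The normalized MT2A values had 1 Gy lowest in campaigns 09A and 09C and highest in campaign 08C, and raw MT2A moved little with array brightness. In campaign 09C at 24 h its raw signals were 23400 in mock-irradiated cells, 21300 at 1 Gy and 24000 at 3 Gy, on arrays whose 95th percentiles of raw signal were 730, 1540 and 361. Over all 116 samples raw MT2A lay between 19860 and 39770, and whether the probe could register a change at this height was not tested. Its normalized signal at 24 h in campaign 08C was 14.53 in mock-irradiated cells, 14.77 at 1 Gy and 14.39 at 3 Gy. In campaign 09A it was 14.98 in mock-irradiated cells, 14.61 at 1 Gy and 14.62 at 3 Gy, and in campaign 09C it was 14.64 in mock-irradiated cells, 14.22 at 1 Gy and 14.94 at 3 Gy. The difference between 3 and 1 Gy was -0.38, 0.01 and 0.72, with a mean of 0.12 ± 0.56, and it became -0.18 without campaign 09C. MTF1 averaged 0.22 ± 0.15 and SLC30A1 -0.21 ± 0.42. Over the 5 tested metallothioneins the median difference was 0.83, with 5 of 5 above 0, against a median of -0.01 over all tested probes, 5% of which lay above 0.36. The rule chose the members on this contrast, so these counts carry no weight as support.

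**Figure D2:**
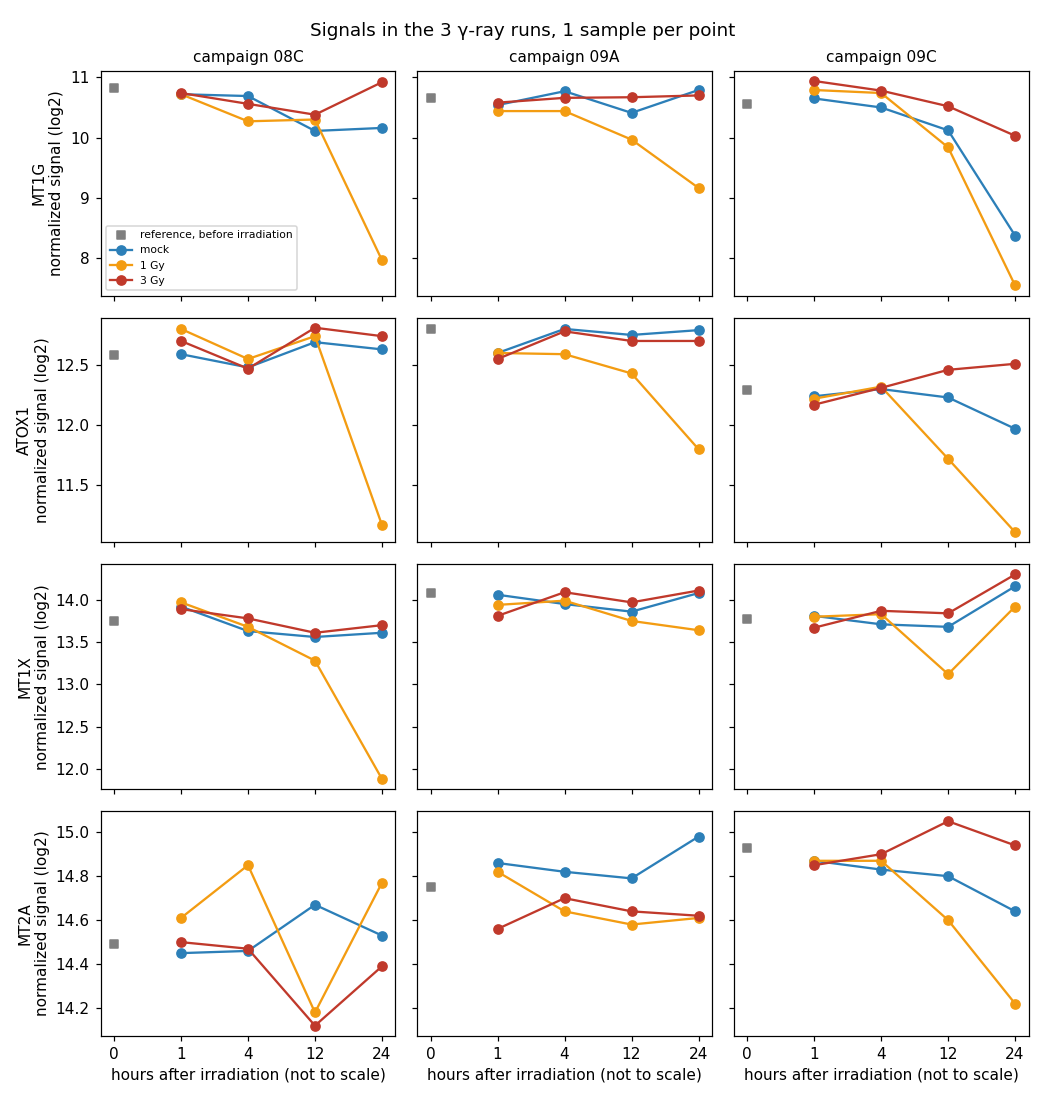
Normalized signal (log2) of MT1G, ATOX1, MT1X and MT2A in the 3 γ-ray runs, by hours after irradiation, for reference cells (square), mock, 1 Gy and 3 Gy, 1 sample per point. The samples of 1 Gy at 24 h lie at 7.96, 9.16 and 7.54 for MT1G and at 11.17, 11.80 and 11.11 for ATOX1, below mock and 3 Gy in each run, while MT2A at 1 Gy is lowest in campaigns 09A (14.61) and 09C (14.22) and highest in campaign 08C (14.77).

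The arrays behind these values differed in brightness and in part in chip. In campaign 08C all 3 samples of 24 h were on 1 chip, and the differences within that chip were 2.95 for MT1G, 1.57 for ATOX1, 1.82 for MT1X and -0.38 for MT2A. The 3 samples of campaign 09A were on separate chips. Those of campaign 09C shared a chip for mock and 1 Gy, with 3 Gy on another. In campaign 09C the array of 3 Gy was dim, with a median raw signal of 57.5 against 81.6 at 1 Gy and a 95th percentile of 361 against 1540. In that run the raw MT1G signals lay close together at 218 in mock-irradiated cells, 235 at 1 Gy and 285 at 3 Gy. The raw ATOX1 signals were 2070 in mock-irradiated cells, 2410 at 1 Gy and 1640 at 3 Gy. Both raw signals at 1 Gy thus lay above mock, and their direction against mock in campaign 09C depends on the normalization. When arrays were brought to 1 common median in place of quantile normalization, the difference of campaign 09C fell to 0.67 for MT1G and -0.19 for ATOX1, while campaign 08C stayed at 2.94 and 1.42 and campaign 09A at 1.44 and 0.91. The mean of MT1G was then 1.68 ± 1.20 and that of ATOX1 0.72 ± 0.82, against a shift of -0.20 in the median of all tested probes. MT1X and MT1F changed sign in campaign 09C under that scaling, to -0.57 and -1.16. The part of array brightness in the difference of campaign 09C was not tested further. Dose and chip cannot be told apart in campaigns 09A and 09C.

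After normalization the doses of γ-rays also differed at 12 h. The difference between 3 and 1 Gy was 0.49 ± 0.36 for MT1G (0.08, 0.71 and 0.68 in campaigns 08C, 09A and 09C), 0.42 ± 0.26 for MT1X (0.33, 0.22 and 0.72), 0.41 ± 0.18 for MT1E (0.25, 0.38 and 0.61) and 0.36 ± 0.35 for ATOX1 (0.07, 0.26 and 0.74). Each of these was above 0 in 3 of 3 runs. The raw signals of campaign 09C ran the other way, with 404 at 3 Gy and 1400 at 1 Gy for MT1G, 5090 and 11200 for MT1X, 87.1 and 198 for MT1E, and 1640 and 4480 for ATOX1. In campaign 08C, raw MT1G (2240 at 3 Gy and 2510 at 1 Gy) and raw ATOX1 (11600 and 12500) were also lower at 3 Gy. In campaign 09A the raw signals ran the same way as the normalized ones, with 1330 at 3 Gy and 895 at 1 Gy for MT1G, 15400 and 14700 for MT1X, 113 and 94.1 for MT1E, and 5960 and 5440 for ATOX1, as did MT1X (19300 and 17700) and MT1E (130 and 111) in campaign 08C. The direction at 12 h thus depends on the normalization for all 4 genes in campaign 09C and for MT1G and ATOX1 in campaign 08C, and the part of array brightness was not tested. The samples of 1 and 3 Gy at 12 h shared a chip in campaigns 08C and 09A but not in campaign 09C. MT1F differed by 0.28 ± 0.21 and MT2A by 0.15 ± 0.26. After normalization, 1 Gy against mock at 12 h gave a median of -0.30 over the metallothioneins, with 0 of 5 above 0. For 3 Gy the median was 0.11, with 4 of 5 above 0. Raw MT1X was higher at 1 Gy than in mock in each run (17700 against 13100, 14700 against 11700 and 11200 against 7840). So were raw MT1F and MT2A. Raw MT1G was higher in campaigns 08C and 09C and raw MT1E in campaign 09C. The direction of 1 Gy against mock thus depends on the normalization in those cases. At 4 h the median difference between doses was 0.08 and at 1 h -0.13, where 1 of 5 was above 0. MT1G alone differed by 0.11 ± 0.07 at 1 h and 0.18 ± 0.13 at 4 h. SLC30A1 was 0.26 ± 0.15 higher at 3 than at 1 Gy at 1 h, in 3 of 3 runs. For MTF1 at 12 h, 1 sample of 1 Gy in campaign 09C was 1.20 above its mock, and the differences between 3 and 1 Gy were 0.07, 0.10 and -1.25.

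**Figure D3:**
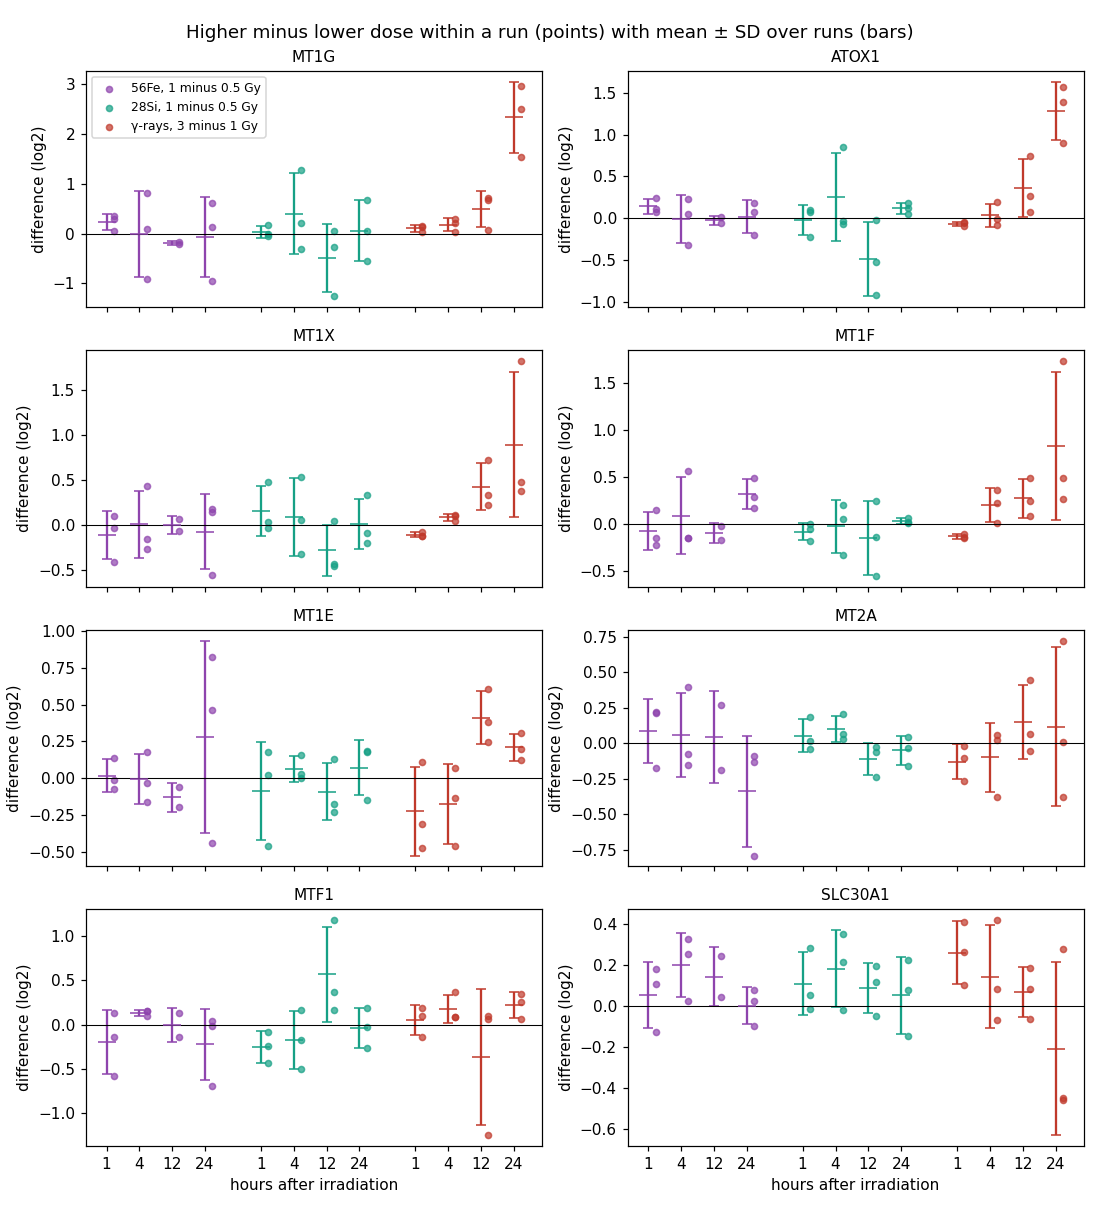
Difference between the higher and the lower dose (log2) of 8 genes by radiation type and hours after irradiation, with points for runs (n = 3, and 2 for 56Fe at 12 h) and bars for the mean ± SD. The γ-ray values at 24 h reach 2.95 for MT1G and 1.57 for ATOX1, while the 56Fe and 28Si values scatter on both sides of 0 at most times.

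After 28Si, no member passed the F test over both doses and 4 times against mock (limma, adjusted p over all tested probes), where 3.17% of the 24350 probes did (773), and 1 of 8 members had an unadjusted p under 0.05. That member was MTF1 (adjusted p = 0.14). Its signal at 12 h was 7.72 in mock-irradiated cells, 7.97 at 0.5 Gy and 8.34 at 1 Gy in campaign 09A, and 7.76, 7.57 and 7.73 in campaign 09B. In campaign 09C it was 7.83 in mock-irradiated cells, 7.64 at 0.5 Gy and 8.82 at 1 Gy. The values at 1 Gy were thus high in 2 runs and level with mock in campaign 09B, and the ratio to mock averaged 0.53 ± 0.51. These samples of 1 Gy shared no chip with mock in any run, so dose and chip cannot be told apart. MTF1 also had a ratio of 0.37 ± 0.28 at 0.5 Gy and 1 h, above 0 in 3 of 3 runs.

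Between 1 and 0.5 Gy of 28Si, 2.55% of probes passed (620) and 0 of 8 members did, with 2 at an unadjusted p under 0.05. These were ATOX1 (adjusted p = 0.16) and MTF1 (adjusted p = 0.13), and both differed at 12 h. The ATOX1 signal at 12 h was 12.59 in mock-irradiated cells, 12.41 at 0.5 Gy and 12.39 at 1 Gy in campaign 09A, and 12.70, 12.83 and 12.30 in campaign 09B. In campaign 09C it was 11.88 in mock-irradiated cells, 12.28 at 0.5 Gy and 11.36 at 1 Gy. The difference between 1 and 0.5 Gy averaged -0.49 ± 0.45 (95% interval -0.79 to -0.19, lower in 3 of 3 runs), of which campaign 09A gave only -0.03. The raw ATOX1 signals ran the other way in the 2 runs that carry this difference, with 3230 in mock-irradiated cells, 3400 at 0.5 Gy and 5620 at 1 Gy in campaign 09B, and 5830, 2160 and 3410 in campaign 09C. The difference thus appears only after normalization, and the part of array brightness in it was not tested. MTF1 differed by 0.57 ± 0.54 (95% interval 0.25 to 0.90, higher in 3 of 3 runs), of which campaign 09C gave 1.18. MT1G differed by -0.49 ± 0.69 (-1.03 to 0.05) and MT1X by -0.28 ± 0.29 (-0.61 to 0.04). As for ATOX1, their raw signals ran the other way in campaigns 09B and 09C. At 1 and 0.5 Gy these were 1400 and 596, then 1330 and 916, for MT1G. For MT1X they were 13000 and 10500, then 13700 and 8260. The median over the 5 metallothioneins after normalization was -0.15, with 0 of 5 above 0, against 0.01 over all probes. ATOX1 was called when 28Si campaign 09A was left out, and MTF1 was called when γ-ray campaign 09C was left out of the shared estimate of spread, in the comparison with mock too. At 1, 4 and 24 h the metallothionein medians between doses of 28Si were 0.04, 0.08 and 0.03.

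The MT1G probe varied widely after 28Si. Its ratio to mock at 0.5 Gy and 4 h was -0.43, -1.06 and 0.07 in the 3 runs, and at 1 Gy and 12 h it was -0.19, -0.45 and -1.02, with a mean of -0.56 ± 0.42. Raw MT1G at 1 Gy and 12 h was above mock in campaigns 09A (1190 against 1130) and 09B (1400 against 717). It was below mock in campaign 09C (1330 against 2980). The direction in campaigns 09A and 09B thus depends on the normalization. After normalization, ATOX1 was lower than mock in the same 3 samples of 1 Gy at 12 h, by 0.37 on average (SD 0.16). Raw ATOX1 was above mock in campaign 09B (5620 against 3230) and below it in campaigns 09A (5560 against 5640) and 09C (3410 against 5830). Mean ratios of SLC30A1 lay between -0.15 and 0.14 in the 8 combinations of dose and time. Those of MT2A lay between -0.08 and 0.13, with raw signals confined to 20600 to 33800 where raw ATOX1 ran from 1690 to 8830 over the same arrays, so they are no measure of how steady the transcript was. MT1F at 1 Gy and 4 h was lower than mock by nearly the same amount in each run (-0.17, -0.19 and -0.16), an amount within the 95% interval of -0.51 to 0.16 that includes 0.

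After 56Fe, 0 of 8 members differed from mock, where 0.0329% of probes did (8), and none of the 8 had an unadjusted p under 0.05. The smallest unadjusted p was 0.11, for MT1E and for MT1F (adjusted p = 0.78 each). After normalization, MT1F was higher than mock at 1 h in 3 of 3 runs at both doses. The means were 0.31 ± 0.16 at 0.5 Gy, 0.23 ± 0.15 at 1 Gy and, at 1 Gy and 24 h, 0.36 ± 0.31. Raw MT1F at 1 h was below mock in campaign 08A at 0.5 Gy (462 against 482) and campaign 08C at 1 Gy (1260 against 1440). At 1 Gy and 24 h it was below mock in campaign 09C (973 against 1050). The direction in these samples thus depends on the normalization. At 4 h and 0.5 Gy, 0 of 5 metallothioneins were above mock and their median was -0.26, against a median of -0.00 over all probes. MT1G had the lowest of these, -0.43 ± 0.89, which rested on campaign 08A with -1.46 beside -0.00 and 0.18. MT1E at 1 Gy and 12 h averaged 0.45 ± 0.64, of which campaign 08A gave 1.18 and the others 0.12 and 0.04.

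Between 1 and 0.5 Gy of 56Fe, 0.608% of probes passed (148), and 0 of 8 members did, none at an unadjusted p under 0.05. MT2A had the smallest unadjusted p (0.13). Its signals at 24 h were 14.51 at 1 Gy and 14.65 at 0.5 Gy in campaign 08A, 13.90 and 14.69 in campaign 08C, and 14.60 and 14.69 in campaign 09C. After normalization the samples of 1 Gy were lower in 3 of 3 runs, by 0.34 on average (SD 0.39, 95% interval -0.60 to -0.08), with differences of -0.13, -0.79 and -0.09 in the 3 runs (adjusted p of the F test over the 4 times 0.70). Raw MT2A was higher at 1 than at 0.5 Gy in campaigns 08A (27000 against 24300) and 09C (26900 against 25900). It was lower in campaign 08C (19900 against 22900). The direction in campaigns 08A and 09C thus depends on the normalization, and the part of array brightness was not tested. MT1F at 24 h was higher at 1 Gy in 3 of 3 runs, by 0.32 ± 0.16 (95% interval -0.02 to 0.65). At 12 h the fit also drew on the mock and 1 Gy samples of campaign 08A, which has no sample of 0.5 Gy, so that its estimate of the MT1G difference was -0.22 (-0.85 to 0.42) beside a mean of -0.19 over the 2 complete runs. At 24 h the median over the metallothioneins was -0.07, with 2 of 5 above 0.

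At equal doses and times, 0% of probes (0 of 24350) and 0 of 8 members differed between 56Fe and 28Si in the log2 ratio to mock (limma). The smallest adjusted p of any probe was 0.0505, 1934 probes had an unadjusted p under 0.05, and 0 members did. The smallest member p was 0.19, for ATOX1 (adjusted p = 0.81). At 1 Gy and 12 h, ATOX1 averaged 0.15 ± 0.31 after 56Fe and -0.37 ± 0.16 after 28Si, and MTF1 -0.03 ± 0.01 after 56Fe and 0.53 ± 0.51 after 28Si.

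MT1G and ATOX1 moved together over the dose differences. Over the 35 differences between doses within a run and time, which share cells and arrays within runs, Pearson's r was 0.93 between MT1G and ATOX1, 0.83 between MT1G and MT1X, and 0.83 between MT1F and MT1X. Without the 3 differences of γ-rays at 24 h, r was 0.81, 0.77 and 0.60 over 32 differences. MT2A had r of 0.26 to MT1G and 0.12 to MT1X, and without γ-rays at 24 h these were 0.32 and 0.40. MT1E had similar values, with r of 0.34 to MT1G and 0.40 to MT1X, and 0.32 and 0.39 without γ-rays at 24 h. MTF1 had r between -0.22 and 0.00 with each other member over the 35 differences, but -0.57 with ATOX1 and -0.27 with MT1F over the 32. Over the 45 mock-irradiated and reference samples, centred by run, r between MT1G and ATOX1 was 0.45. The named genes with the pattern most like MT1G over the 35 differences were NRDE2 (r = 0.90), UPF2 (0.88), MIF (0.87), NDUFA3 (0.86) and TDG (0.85), and without γ-rays at 24 h these were 0.85, 0.85, 0.70, 0.67 and 0.66. Those most like ATOX1 were SNRPB2 (0.92), TDG (0.92), NUDT1 (0.91), RPP21 (0.91) and UQCR10 (0.90), and those most like MT2A were CDC37 (0.86), RTKN (0.85), SIRT7 (0.83), RPL13AP20 (0.83) and IRX4 (0.83). In mock-irradiated and reference samples the most alike were HYI (0.80) for MT1G, NDUFB6 (0.79) for ATOX1 and EEF1A1 (0.65) for MT2A. These correlations are descriptions, over arrays that also differ in brightness.

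**Figure D4:**
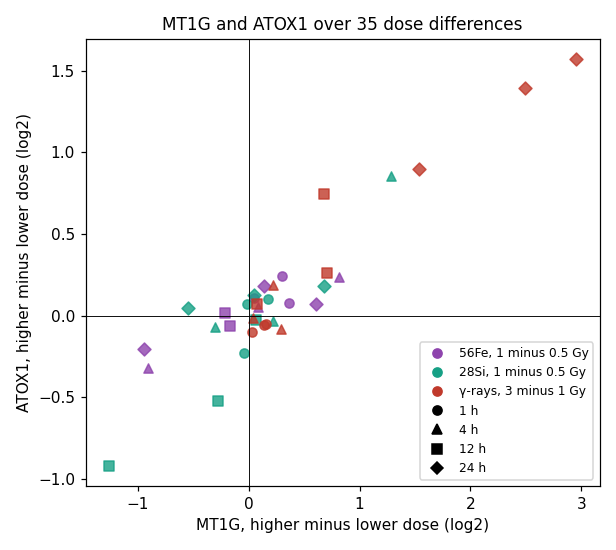
Higher minus lower dose (log2) for MT1G (x axis) and ATOX1 (y axis), 1 point per run and time (n = 35), with colours for radiation types and symbols for hours. The 3 γ-ray points of 24 h lie farthest to the upper right (MT1G at 1.54, 2.49 and 2.95), and the other 32 points have r = 0.81.

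Mock-irradiated cells changed over time without any irradiation. Over 1, 4, 12 and 24 h against the reference, 22.6% of probes passed the F test (5510) and 3 of 8 members did, namely SLC30A1 (adjusted p = 0.0077), MT1F (0.016) and MT1G (0.045), while 4 of 8 had an unadjusted p under 0.05. The difference between the members' share and that of all probes was not tested. SLC30A1 had reference signals of 7.54 to 8.55 over the 9 runs (median 8.07), 8.08 to 9.34 at 1 h (median 8.44), 8.03 to 9.64 at 4 h (median 8.35), 7.87 to 8.44 at 12 h (median 8.01) and 7.96 to 9.44 at 24 h (median 8.28). These ranges overlap, but within runs the cells of 4 h were above their reference in 9 of 9 runs and those of 24 h in 8 of 9. The mean differences from the reference were 0.50 ± 0.41 at 1 h, 0.60 ± 0.45 at 4 h (1.51-fold, 95% interval 0.28 to 0.92), 0.07 ± 0.42 at 12 h and 0.46 ± 0.51 at 24 h. The call of SLC30A1 held without each of the 9 runs in turn.

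After normalization, MT1F fell and came back. Its reference signals ran from 9.12 to 10.08 (median 9.90), those at 12 h from 8.85 to 9.83 (median 9.45) and those at 24 h from 9.47 to 9.94 (median 9.65). Cells of 4 h and of 12 h were below their reference in 9 of 9 runs, by 0.20 ± 0.15 and 0.34 ± 0.24. Those of 24 h were below it in 5 of 9, by 0.06 ± 0.31. Raw MT1F at 12 h was above its reference in campaign 09C of 56Fe (1110 against 823), 28Si (1210 against 589) and γ-rays (358 against 282). The call of MT1F was lost without 56Fe campaign 08C (adjusted p = 0.059) or 28Si campaign 09C (0.062). MT1G had medians of 10.70 in the reference, 10.65 at 1 h, 10.69 at 4 h, 10.41 at 12 h and 10.16 at 24 h. It was lower than the reference in 7 of 9 runs at 24 h, by 0.63 ± 1.03, with values spread from 8.37 to 11.22. Its call was lost without 7 of the 9 runs (adjusted p up to 0.19), and was kept without 56Fe campaign 08A (0.003), where the reference was 9.86 and all later mock samples lay at 11.22 or above, and without γ-ray campaign 09A (0.037). The mock samples of 3 of the 9 runs belong to the γ-ray arm on which MT1G was chosen.

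**Figure D5:**
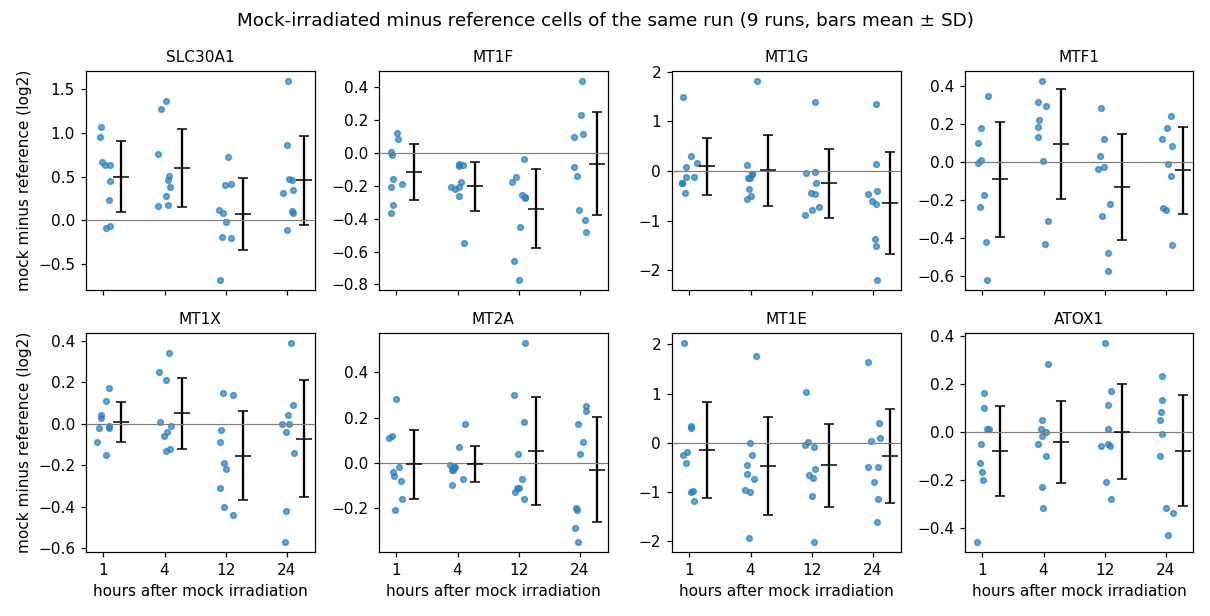
Mock-irradiated minus reference cells of the same run (log2) for 8 genes at 1, 4, 12 and 24 h, 1 point per run (n = 9), with the mean ± SD as bars. SLC30A1 lies above 0 in all 9 runs at 4 h, MT1F below 0 in all 9 runs at 4 and 12 h, and MT1G spreads most at 24 h (mean -0.63).

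Between successive times, 0.546% of probes differed in mock-irradiated cells of 1 h against the reference, with 0 of 8 members called and 1 at an unadjusted p under 0.05 (SLC30A1, 0.50 ± 0.41, adjusted p = 0.16). Between 4 and 1 h, 6.50% of probes and 0 of 8 members were called, with 1 at an unadjusted p under 0.05 (MTF1, 0.18 ± 0.19, adjusted p = 0.12). Between 12 and 4 h, 5.86% of probes and 2 of 8 members were called: SLC30A1 fell by 0.52 (SD 0.65, lower in 7 of 9 runs, adjusted p = 0.039) and MTF1 fell by 0.22 (SD 0.17, lower in 9 of 9 runs, adjusted p = 0.049). Both were lost in 6 of the 9 fits that left out 1 run. For SLC30A1 these were 56Fe campaigns 08A and 09C, γ-ray campaign 09A and all 3 campaigns of 28Si (adjusted p up to 0.17), and for MTF1 56Fe campaigns 08C and 09C, γ-ray campaigns 08C and 09A and 28Si campaigns 09A and 09C (up to 0.21). MT1X was lower at 12 than at 4 h in 9 of 9 runs, by 0.20 on average (SD 0.19, adjusted p = 0.15). Between 24 and 12 h, 13.0% of probes and 1 of 8 members were called: MT1F rose by 0.27 ± 0.21 (higher in 8 of 9 runs, adjusted p = 0.024), a call lost without 56Fe campaign 08A, γ-ray campaign 09A or 28Si campaigns 09B and 09C (up to 0.08). ATOX1 had mean differences from the reference between -0.08 and 0.00, with 95% intervals inside -0.23 to 0.15. Those of MT2A lay between -0.03 and 0.05, from a probe whose raw signal moved little with array brightness.

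The mock calls depended on the scaling and on the pairing of runs. After scaling to 1 common median, MT1G kept its call over the mock time course (adjusted p = 0.045), SLC30A1 (0.22) and MT1F (0.72) lost theirs, and no member was called between successive times. Without the run as a block, 0 members were called over the time course, the smallest adjusted p being 0.085 for SLC30A1.

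Other genes of metal handling were read from lists of metallothioneins, zinc exporters, zinc importers, copper and iron handling, of which 57 probes were tested. Over the mock time course 16 of the 57 were called, against the 22.6% of all probes. Among 8 probes of SLC30 zinc exporters, 2 were called. SLC30A7, which loads zinc into the Golgi, rose by 0.31 between 1 and 4 h (adjusted p = 0.007) and fell by 0.35 between 4 and 12 h (0.0028), and SLC30A6 fell by 0.39 between 12 and 24 h (0.007). Among 15 probes of SLC39 zinc importers, 6 were called. SLC39A14 fell by 0.41 between 4 and 12 h (0.00058), and SLC39A8 fell by 0.45 (0.0023) and SLC39A3 by 0.34 (0.0058, at 1 of its 3 tested probes) between 12 and 24 h. Among 20 probes of copper handling, 7 were called. ATP7B, a copper pump that ATOX1 supplies, was called at 1 of its 2 tested probes over the time course (adjusted p = 0.00033) and was the only list gene called against mock after 28Si (0.028). STEAP2, a metalloreductase, fell by 0.21 between 1 and 4 h (0.011) and rose by 0.34 between 4 and 12 h (0.00013), and SCO2, which serves copper delivery to cytochrome oxidase, fell by 0.36 between 4 and 12 h (0.0078). CUTC, named for copper homeostasis, fell by 0.42 between 1 and 4 h (0.013). Of 10 iron handling probes, TFRC, the transferrin receptor, was the 1 called over the course and fell by 0.61 between 12 and 24 h (0.019). In the same step STEAP3, a metalloreductase, rose by 0.31 (0.043) and PCBP2, an iron chaperone, rose by 0.23 (0.048). The list medians between successive mock times lay between -0.07 and 0.09, beside medians of -0.01 to 0.00 over all probes. None of the 4 tested probes in the list of other metallothioneins was called in any of the 10 comparisons. They were MT1HL1, MT4, MT1B and TESMIN, whose place in the list rests on an older symbol only. Their mean signals of 6.24 to 6.52 lay close to the median of all probes (6.23), which limits what they could show. Between doses of 56Fe, CUTA was the only list gene called (0.042, at 1 of its 2 tested probes), and none was called after 56Fe against mock, between doses of 28Si, between the ions or in mock of 1 h against the reference.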

How the data were processed

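Expression was measured on bead arrays. The authors extracted mean bead intensities with BeadStudio and deposited them without background subtraction or normalization, and these deposited intensities were the values used. The authors' own table holds log2 values, which the authors background-subtracted with MBCB and quantile-normalized, and it served as an alternative. The files name no detection p and no genome build. A probe's symbol came from the platform annotation, updated through its Entrez ID.

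Here the background was corrected by normexp with an offset of 50, the 134 arrays were quantile-normalized together, log2 was taken, and technical replicates were then averaged. The tests took in 24350 of 48701 probes, those whose mean exceeded the overall median (6.23). Using limma 3.58.1 (R 4.3.3), a model was fitted to 107 irradiated and mock-irradiated samples with a coefficient for each radiation type, dose and time and a block for each of 36 combinations of run and time (47 residual degrees of freedom). The block rests on the runs: irradiated samples and the mock sample of their run and time deviated together, with a median correlation of 0.68 (0.27 to 0.87, 71 pairs). Pairs on 1 chip numbered 7 for 56Fe, 3 for 28Si and 7 for γ-rays, and in the others treatment and chip were mixed. Mock-irradiated and reference samples (45) were fitted with the run as a block (32 residual degrees of freedom). P-values were adjusted after Benjamini-Hochberg over all tested probes and called at 0.05, and 95% intervals come from these fits. The number of arrays limits the precision. The fits were tested on simulated data.

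The members and lists were chosen with earlier results of these data known. Named were all members, list genes that were called (at most 4 per comparison, by the smallest p, to which STEAP3 and PCBP2 were added after their values were seen) and the 5 genes most like MT1G, MT2A and ATOX1. Alternatives changed the background correction, scaling, values, filter, variance prior, replicate block and chip, and left out each run. Promoter sequences are RefSeq's (GRCh38.p14). Figures were drawn with matplotlib 3.10.9 in Python 3.11.15.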

Additional observations from a re-analysis of the deposited data

Results flagged for a closer look

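In 45 checks of the 9 mock or reference samples of a probe at 1 time, 2 samples lay far from the rest, and chance flags about 1 in 20. MT1E in mock-irradiated cells of 4 h was 8.24 in the 56Fe run of campaign 08A, where the nearest other run had 7.11 and the median was 6.50. MT2A in mock-irradiated cells of 12 h was 14.47 in the 56Fe run of campaign 09C, where the nearest other run had 14.67 and the median was 14.74. In 144 checks of a probe between 2 radiation types at equal dose and time (0.5 and 1 Gy for 56Fe with 28Si, 1 Gy for each of them with γ-rays), 5 had all runs on opposite sides of mock, and none of these differences was tested alone. With at most 3 runs on a side, random signs also give such cases. Their share by chance or over all probes was not worked out, so the 5 are listed as flags only. MT1X at 0.5 Gy and 12 h was below mock after 56Fe in both available runs and above it after 28Si in 3 of 3, and the means differed by -0.19 (56Fe minus 28Si). The other 4 were at 1 Gy between 56Fe and γ-rays, the radiation on which the genes were chosen. MT1E at 12 h was above mock in 3 of 3 runs after 56Fe and below it in 3 of 3 after γ-rays, with a difference of means of 0.82, of which campaign 08A gave much through its ratio of 1.18 after 56Fe. MT1F at 24 h had the same signs, with a difference of 1.23. These are signs of normalized values. In γ-ray campaign 09C, raw MT1E at 12 h (198 against 110) and raw MT1F at 24 h (643 against 440) were above mock. MTF1 at 12 h was below mock after 56Fe and above it after γ-rays, with a difference of -0.47. MT1H at 24 h had a difference of -0.11 at signals under the median of all probes.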

How the results depend on the processing

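No member was called after 56Fe against mock, between doses of 56Fe, between 56Fe and 28Si, in mock of 1 h against the reference or in mock of 4 h against 1 h under any of the 17 alternatives. The members called over the mock time course, 3 in the main setting, numbered 1 with a common median, 2 with no filter (MT1G at an adjusted p of 0.078) and with a trended robust prior (MT1G at 0.066), 0 with no replicate block, and 1 to 5 when 1 run was left out. Those in mock of 12 h against 4 h, 2 in the main setting, numbered 0 with a common median, with no filter and with no replicate block, 1 with the authors' values, with a trended robust prior and with the chip as a random block, and 0 to 2 without 1 run. That in mock of 24 h against 12 h, 1 in the main setting, numbered 0 with a common median and with no replicate block, and 0 to 1 without 1 run. For 28Si against mock and between its doses, 0 to 1 member was called without 1 run. Of the adjusted p-values of single members called in mock-irradiated cells, 43 rose above the threshold and 59 stayed under it. The difference of ATOX1 between 3 and 1 Gy of γ-rays at 24 h was 0.716 with a common median, and without 1 run it ranged from 1.15 to 1.48, that of MT1G from 2.02 to 2.72, that of MT1X from 0.42 to 1.15 and that of MT2A from -0.18 to 0.37.

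Calls over all probes moved as well. With a common median, probes called fell to 0 from 773 for 28Si against mock, to 322 from 620 between doses of 28Si, to 976 from 5510 over the mock time course and to 136 from 3159 in mock of 24 h against 12 h. With the authors' values 3 probes in place of 148 were called between doses of 56Fe, and without 1 run 0 to 2006. Without the γ-ray samples of 24 h, an alternative chosen after seeing the data, no call of a member changed, and 241 probes were called between doses of 56Fe and 16 after 56Fe against mock in place of 8. With no replicate block 0 probes were called in each of the 4 ion comparisons with calls and 2404 over the mock time course. With the chip as a random block 484 were called for 28Si against mock, 355 between the 28Si doses and 44 between the 56Fe doses, for which no filter gave 27. Leaving out 1 run gave 2 to 1412 for 56Fe against mock, 42 to 886 for 28Si against mock and 23 to 915 between doses of 28Si. The cause of these shifts was not tested. Signals near background limit MT1H, which was not tested, and MT1E.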
